A study of Mus musculus with 8 samples.

Results

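A set of 10 genes of blood vessel growth was examined in RNA-seq counts of 8 orthotopic Myc-CaP tumors: the ligands Vegfa, Vegfb and Vegfc, the receptors Kdr, Flt1 and Flt4, and the endothelial genes Pecam1, Cdh5, Tek and Eng. Members were chosen by gene symbol, and all 10 were found once each among the 38115 genes counted. Myc-CaP is a murine prostate cancer line derived from a mouse whose Myc transgene is driven by a prostate promoter, and it was used as an androgen sensitive line (AS) and as a castrate resistant line (CR). Cells of either line were injected into the anterior prostate of FVB male mice that were intact or castrated beforehand. The labels do not say which line went into which host, so the line and the castration of the host cannot be told apart. There were 2 primary AS, 2 metastatic AS, 2 primary CR and 2 metastatic CR tumors. Within a tumor type the replicates are numbered AS1 and AS2, or CR1 and CR2. The metastases are described as matched, but neither the primary tumor of each nor its site is given, so no pairing was used. The labels do not say that the tumors came from separate animals, and matched tumors may share one. The tests treated the 8 tumors as independent. Their p-values therefore measure the spread between these 8 tumors, which may be partly technical, and not the spread between animals.

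VEGF ligands are secreted by tumor and stromal cells and bind receptor tyrosine kinases on endothelium, and Vegfa is induced by low oxygen through hypoxia-inducible factors. Kdr (VEGFR2) carries most of the growth signal of Vegfa, Flt1 (VEGFR1) binds Vegfa and Vegfb and also acts as a decoy, and Flt4 (VEGFR3) binds Vegfc and is known for lymphatic vessels and sprouting tips. Pecam1 (CD31) and Cdh5 (VE-cadherin) hold endothelial junctions together, Tek (Tie2) is the receptor for angiopoietins and is associated with vessel maturation, and Eng (endoglin) is a coreceptor for BMP9 and TGF-beta.

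By the GENCODE M21 annotation of mm10 (GRCm38), all 10 are protein coding genes. The ligand genes lie at chr17:46016993-46032369 on the minus strand (Vegfa), chr19:6982473-6987651 on the minus strand (Vegfb) and chr8:54077606-54187096 on the plus strand (Vegfc). The receptor genes lie at chr5:75932827-75978458 on the minus strand (Kdr), chr5:147561604-147726011 on the minus strand (Flt1) and chr11:49609263-49652739 on the plus strand (Flt4). Pecam1 lies at chr11:106654217-106750628 on the minus strand, Cdh5 at chr8:104101625-104144511, Tek at chr4:94739289-94874976 and Eng at chr2:32646595-32682669, these last on the plus strand. Cdh5 overlaps the antisense gene Gm29682 and the 3' end of Eng overlaps Fpgs on the other strand. The libraries were stranded, but how strand was used in counting is not given in the sources used here, so reads of these overlaps may be split.

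Upstream sequences of Kdr, Flt1, Eng and Tek are shown because these are the endothelial receptors whose levels are compared below. The sequences are from RefSeq, build GRCm38.p6, and hold the 250 bases before the annotated start, 5' to 3' on the strand of the gene. Capitals mark GGAA or its reverse complement TTCC, the core bound by ETS factors, a family active in endothelium.
Kdr (chr5:75978456-75978705, minus strand): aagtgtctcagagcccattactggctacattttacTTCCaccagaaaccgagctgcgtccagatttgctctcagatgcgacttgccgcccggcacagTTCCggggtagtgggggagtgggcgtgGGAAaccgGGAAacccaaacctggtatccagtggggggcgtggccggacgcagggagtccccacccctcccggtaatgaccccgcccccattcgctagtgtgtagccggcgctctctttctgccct
Flt1 (chr5:147726012-147726261, minus strand): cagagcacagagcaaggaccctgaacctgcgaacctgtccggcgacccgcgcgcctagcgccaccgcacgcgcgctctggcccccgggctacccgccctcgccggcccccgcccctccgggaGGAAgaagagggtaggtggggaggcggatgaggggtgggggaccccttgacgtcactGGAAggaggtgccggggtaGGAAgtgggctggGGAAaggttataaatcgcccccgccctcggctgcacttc
Eng (chr2:32646345-32646594, plus strand): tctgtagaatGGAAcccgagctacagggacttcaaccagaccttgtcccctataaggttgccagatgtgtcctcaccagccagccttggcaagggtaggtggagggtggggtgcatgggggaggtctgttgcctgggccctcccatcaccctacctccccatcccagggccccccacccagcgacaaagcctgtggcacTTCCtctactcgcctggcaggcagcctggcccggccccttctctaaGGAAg
Tek (chr4:94739039-94739288, plus strand): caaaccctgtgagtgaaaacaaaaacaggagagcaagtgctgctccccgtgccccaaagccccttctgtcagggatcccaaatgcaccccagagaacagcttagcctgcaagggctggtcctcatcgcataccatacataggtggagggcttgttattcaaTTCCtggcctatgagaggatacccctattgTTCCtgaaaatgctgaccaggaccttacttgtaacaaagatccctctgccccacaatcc
GGAA occurred 4 times in the Kdr and Flt1 windows, 3 times in Eng and 2 times in Tek, on both strands together. Of 32851 RefSeq windows of the same length, 93.4% held GGAA, with a mean of 2.91 matches. The longer AGGAAG, each match of which contains a GGAA, occurred 2 times in each of the Flt1 and Eng windows, was absent from the Kdr and Tek windows, and was held by 29.5% of all windows. These matches are letters, not binding sites. RefSeq windows were found for 8 of the 10 members, all but Pecam1 and Cdh5.

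Total counts ranged from 20905806 to 91886163 per tumor, with the CR2 tumors the shallowest and metastatic CR1 next, at 40586710. Endothelial RNA was detected in every tumor: none of 22 other endothelial markers was at 0 in any of them, and their summed level ran from 102.8 CPM in metastatic CR1 to 194.5 CPM in metastatic AS2. CPM is the count divided by the TMM-scaled library size and multiplied by 1000000. Among prostate epithelial markers, Krt8 was at 36.4 to 710.4 CPM, whereas Krt18, Epcam and Pbsn were each below 1 CPM in every tumor. The 9 macrophage genes summed to 266.5 to 659.6 CPM. Lung epithelial markers summed to below 1 CPM in every tumor, and the lymphatic gene Prox1 was between 0.01 and 1.17 CPM. In bulk tumors, fewer endothelial cells and less RNA per cell cannot be told apart.

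Per kilobase of exon, Vegfa had the highest median over the 8 tumors, 5.92 CPM per kb, and Vegfc the lowest, 0.089 CPM per kb. Vegfa was the highest member in 4 of 8 tumors and was above Vegfb in 6 of 8, and in the AS tumors its median of 3.79 CPM per kb was below the 4.19 of Vegfb. Between them, the medians in CPM per kb were 4.05 for Vegfb, 3.88 for Cdh5, 3.57 for Pecam1, 1.38 for Eng, 1.18 for Flt1, 1.17 for Kdr, 0.66 for Tek and 0.23 for Flt4. Pecam1 was above Eng, and Flt4 above Vegfc, in 8 of 8 tumors. Kdr was above Tek, and Tek above Flt4, in 7 of 8 tumors. The other neighbours were not separated: Eng was above Flt1, and Flt1 above Kdr, in only 5 of 8 tumors, and Vegfb was above Cdh5 in only 2 of 8 tumors although its median was higher.

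**Figure D1:**
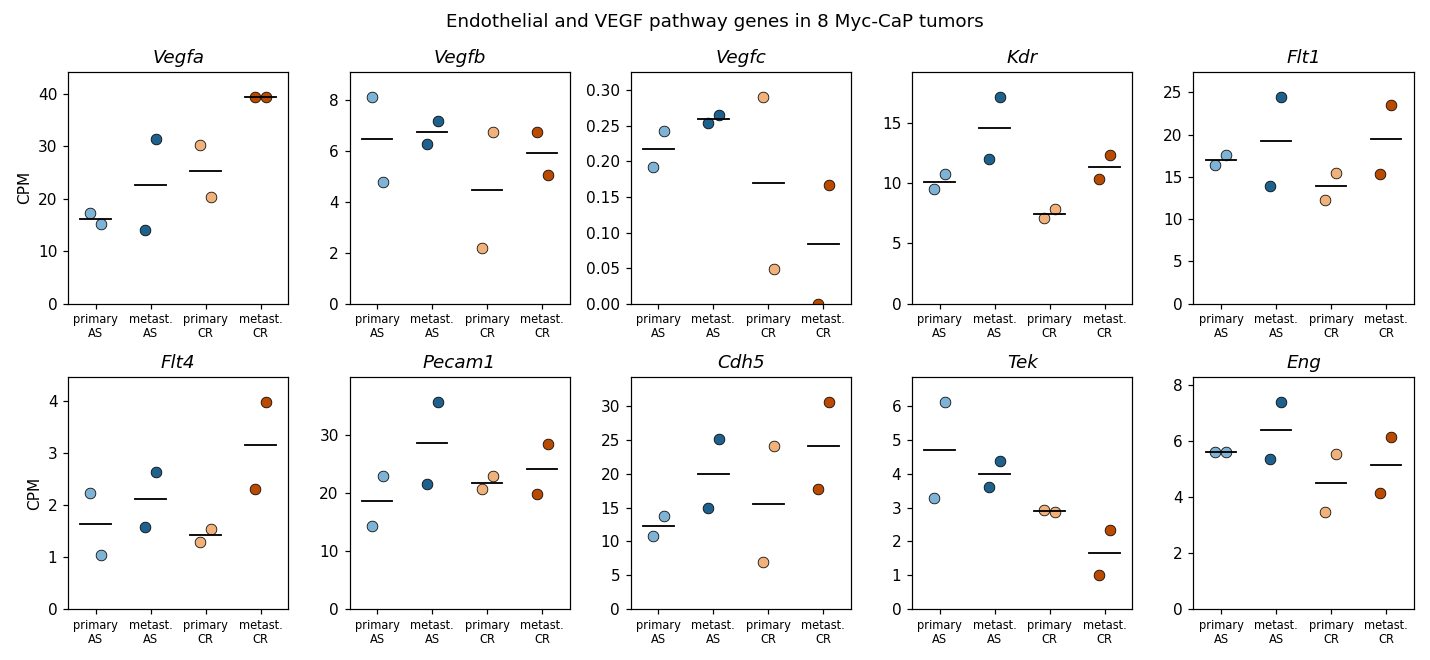
Level of each of the 10 genes in each tumor, in CPM on a linear axis that starts at 0, with 1 point per tumor, 2 tumors per group and a bar at the mean of each group. The 4 CR tumors sit below the 4 AS tumors for Tek, and 3 of the 4 metastases sit above all primary tumors for Kdr.

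The first comparison asked whether vessel genes differ between metastatic and primary tumors. In metastases the point estimates of 8 of 10 members were above 0, whereas no member passed the adjusted threshold of 0.05, and neither did any other gene. By edgeR's quasi-likelihood test, 0 of 17104 genes (0%) were called, with 459 genes (2.68%) and 1 of 10 members, Kdr, at an unadjusted p below 0.05. DESeq2 also called 0 genes, with 611 at an unadjusted p below 0.05. The median log2 fold change was 0.35 over the members and -0.03 over all genes tested, of which 46.2% were above 0. Of the 22 other endothelial markers, 15 were above 0, with a median of 0.17 and none called. The study itself, by DESeq with 3 primary tumors, reported genes that differed between tumor types, most of them higher in metastases. Its samples and test differed from those used here, and its threshold may have. Its methods mention correction for multiple testing, but the cutoff given for its gene list is a p-value below 0.05. Whether that p-value was adjusted is not said.

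Kdr, the main signaling receptor of Vegfa, was at 9.49, 10.8, 7.10 and 7.83 CPM in primary AS1, AS2, CR1 and CR2. In the metastases it was at 11.96, 17.2, 10.4 and 12.3 CPM in the same order. Only metastatic CR1 fell within the range of the primary tumors, below primary AS2. The log2 fold change was 0.56 with a standard error of 0.23 (unadjusted p = 0.0356, adjusted p = 0.997, edgeR), and the exact two-sided permutation test of 4 against 4 tumors gave p = 0.0571, where the smallest possible value is 0.0286.

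Flt4, the receptor of Vegfc, was at 2.23, 1.04, 1.30 and 1.54 CPM in the primary tumors and at 1.58, 2.63, 2.31 and 3.98 CPM in the metastases, in the order AS1, AS2, CR1, CR2. The groups overlapped in primary AS1 and metastatic AS1. Its log2 fold change of 0.78 (SE 0.37) was the largest of the 10 (exact permutation p = 0.0571), but rested on raw counts of 31 to 268 per tumor.

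Cdh5, the cadherin of endothelial junctions, was at 10.8, 13.7, 6.98 and 24.0 CPM in primary AS1, AS2, CR1 and CR2 and at 14.9, 25.2, 17.7 and 30.6 CPM in the metastases. The primary CR tumors differed from each other by more than the metastases did from the primary tumors, and the log2 fold change was 0.67 (SE 0.38, exact permutation p = 0.114). Pecam1, the other junction gene, was at 14.3, 22.9, 20.6 and 22.9 CPM in the primary tumors and at 21.5, 35.6, 19.8 and 28.4 CPM in the metastases. The ranges overlapped, with a log2 fold change of 0.38 (SE 0.24).

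Flt1 was between 12.3 and 17.6 CPM in primary tumors and between 13.9 and 24.5 CPM in metastases. Only the metastatic AS2 and CR2 tumors exceeded every primary tumor, and the log2 fold change was 0.32 (SE 0.23). Eng was between 3.45 and 5.60 CPM in primary tumors and between 4.12 and 7.39 CPM in metastases, with a log2 fold change of 0.19 (SE 0.27).

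Among the ligands, Vegfa was at 17.2, 15.2, 30.3 and 20.4 CPM in primary AS1, AS2, CR1 and CR2 and at 14.0, 31.4, 39.5 and 39.4 CPM in the metastases. The lowest of all 8 tumors was a metastasis, so the groups overlapped, and the log2 fold change was 0.58 (SE 0.34, exact permutation p = 0.286). Vegfb ranged from 2.17 to 8.12 CPM in primary tumors and from 5.07 to 7.15 CPM in metastases, with a log2 fold change of 0.22 (SE 0.37). Vegfc was counted 0 to 27 times per tumor, with 0 reads in metastatic CR1 and 1 read in primary CR2, which is too few to compare groups.

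Tek was the only member besides Vegfc with a point estimate below 0, with a log2 fold change of -0.42 (SE 0.46). For the 10 members, 0 had groups of 4 that did not overlap, against 1.7% of all genes tested.

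**Figure D2:**
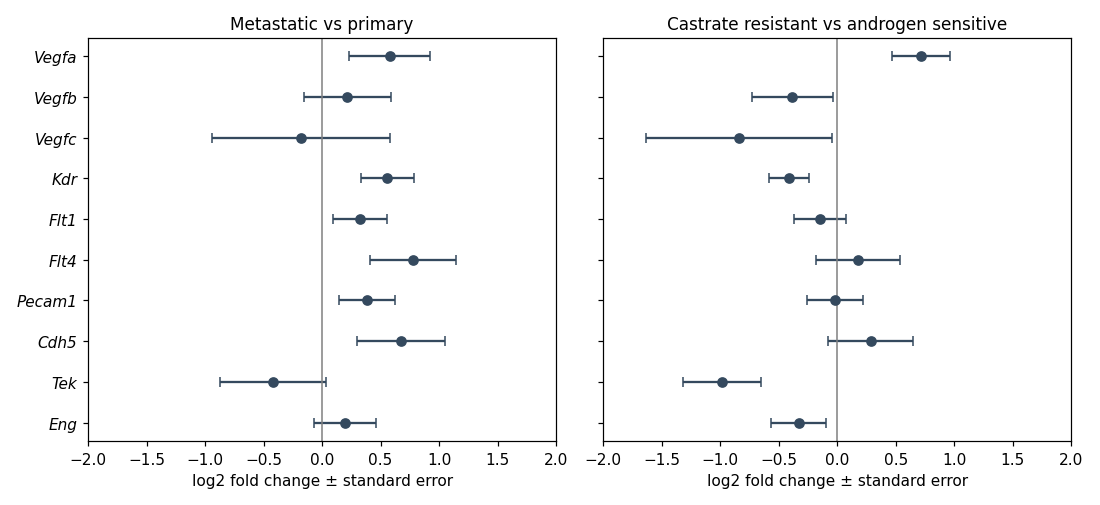
Log2 fold change of each gene for metastatic against primary tumors (left) and CR against AS tumors (right), with bars of 1 standard error from edgeR's fit to 8 tumors. Most estimates are above 0 on the left, and Vegfa and Tek lie on opposite sides of 0 on the right, at 0.71 and -0.99.

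The second comparison was between CR and AS tumors, with tumor type as a covariate. Either side may hold fewer animals than tumors, so its p-values may be too small. Tek was lower and Vegfa higher in CR tumors in most or all tumors, but no member was called by edgeR: 0 of 10, against 2026 of 17797 genes (11.4%; 5.66% higher and 5.72% lower). At an unadjusted p below 0.05 there were 3 members, Tek, Vegfa and Kdr, against 28.2% of all genes. Point estimates were above 0 for 3 of 10 members and for 49.6% of all genes, and the median log2 fold change was -0.24 over the members and -0.01 over all genes.

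Tek, the angiopoietin receptor, was at 3.29, 6.13, 3.61 and 4.38 CPM in primary AS1, primary AS2, metastatic AS1 and metastatic AS2. In primary CR1, primary CR2, metastatic CR1 and metastatic CR2 it was at 2.94, 2.87, 0.99 and 2.34 CPM. Every CR tumor was below every AS tumor, the gap being narrow between primary CR1 and primary AS1. Raw counts were 206 to 447 in AS tumors and 243, 58, 34 and 56 in the CR tumors in the order above. All CR tumors but primary CR1 had shallower libraries than every AS tumor. The log2 fold change was -0.99 (SE 0.33, edgeR unadjusted p = 0.0159, adjusted p = 0.0894), with an exact permutation p = 0.0286, the smallest possible, unadjusted among 20 such tests of 10 members in the 2 comparisons. Of all genes tested, 18.4% had groups that did not overlap, and 9.49% were lower in CR in this way, against which the 1 of 10 members is to be read. DESeq2 called Tek (adjusted p = 0.0316), but with each tumor left out in turn, an alternative chosen after the data were seen, it did so in only 3 of 8 fits (without primary AS1, primary CR1 or metastatic CR2), with an adjusted p up to 0.187 in the others. Without the low-count filter edgeR also called Tek (adjusted p = 0.0149).

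Vegfa was at 17.2, 15.2, 14.0 and 31.4 CPM in the AS tumors in the same order and at 30.3, 20.4, 39.5 and 39.4 CPM in the CR tumors. The CR tumors were higher in 14 of 16 pairs, the exceptions being metastatic AS2 against both primary CR tumors. The log2 fold change was 0.71 (SE 0.25, edgeR unadjusted p = 0.0191, adjusted p = 0.0997; exact permutation p = 0.0857). DESeq2 called Vegfa (adjusted p = 0.0449), and in 2 of 8 fits with a tumor left out (without metastatic AS2 or primary CR2), with an adjusted p up to 0.145 in the others.

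Kdr averaged 12.3 ± 3.36 CPM in AS and 9.40 ± 2.39 CPM in CR tumors (SD, n = 4), with a log2 fold change of -0.41 (SE 0.17, edgeR unadjusted p = 0.0420, adjusted p = 0.160). The groups overlapped, as the highest CR value of 12.3 CPM was a metastasis and the lowest AS value of 9.49 CPM a primary tumor. Eng averaged 5.99 ± 0.94 CPM in AS and 4.82 ± 1.25 CPM in CR tumors, with a log2 fold change of -0.33 (SE 0.23). Flt1, at 18.1 ± 4.53 and 16.6 ± 4.79 CPM, had a log2 fold change of -0.15 (SE 0.22).

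Pecam1 averaged 23.6 ± 8.86 CPM in AS and 22.9 ± 3.88 CPM in CR tumors, a log2 fold change of -0.02 (SE 0.24) whose sign changed under other scalings and filters. Cdh5 varied more in CR than in AS tumors, from 6.98 to 30.6 CPM against 10.8 to 25.2 CPM, with a log2 fold change of 0.28 (SE 0.37). Flt4, with a log2 fold change of 0.18 (SE 0.36), and Vegfb, with -0.38 (SE 0.35), were within their spread between tumors. Vegfc had 12 to 27 reads in AS tumors and 24, 1, 0 and 4 reads in the CR tumors primary CR1, primary CR2, metastatic CR1 and metastatic CR2. The tumors with fewest reads included the shallow CR2 libraries, and its log2 fold change was -0.84 (SE 0.80).

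The estimates for markers of other cells are given beside these values. Of the 22 other endothelial markers, 16 had point estimates below 0 in CR tumors, with a median log2 fold change of -0.34. None was called by edgeR, and the smallest adjusted p-values were 0.0892 for Icam2 (log2 fold change -0.97), an endothelial adhesion molecule, and 0.118 for Ecscr (1.04). Of 9 macrophage genes 8 were below 0, with a median of -0.38 and none called, and their sum was lowest, at 266.5 CPM, in metastatic CR1, the tumor with the lowest Tek. Of 11 pericyte and smooth muscle genes 9 were below 0, and Pdgfb, the endothelial ligand that recruits pericytes, was called lower (log2 fold change -1.29, adjusted p = 0.0375). Of 3 hepatocyte genes tested 2 were called lower, Fgb (log2 fold change -4.00) and Ttr (-1.32). Alb was between 0 and 3.18 CPM in all tumors, but the 5 genes of this list did not sum to a low level. Their sum was 3714 to 10090 CPM in AS tumors and 94.96 to 1975 CPM in CR tumors. With Alb this low, these sums are not read as hepatocyte content. Of the prostate markers, Krt8 was called higher (log2 fold change 1.85, edgeR adjusted p = 0.0464). Krt18 and Epcam, at the low levels given above, went the other way (-0.78 and -1.31) and were not called. No gene of the lymphatic, platelet, red cell, lymphocyte, fibroblast or lung lists was called in either comparison. The part of these cell types in the member values was not tested.

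Relative to the summed other endothelial markers of the same tumor, an alternative chosen after the values were seen, Tek was at 2.81, 4.04, 2.75 and 2.25 CPM per 100 CPM of markers in primary AS1, primary AS2, metastatic AS1 and metastatic AS2. It was at 2.47, 2.27, 0.97 and 1.61 in the CR tumors, so that the groups now overlapped (exact permutation p = 0.0857). Of 10 members in each of the 2 comparisons, the groups did not overlap for 1 member between tumor types (1.23% of all genes on this scale) and for 0 members between phenotypes (12.6%). The member was Kdr: it was at 8.12, 7.09, 5.95 and 6.17 in primary AS1, AS2, CR1 and CR2 and at 9.11, 8.82, 10.1 and 8.47 in the metastases, with 16 of 16 pairs higher (exact permutation p = 0.0286, the smallest possible, unadjusted among the 20 tests).

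Ratios between members, also chosen after the values were seen, were taken per kilobase of exon. The Vegfa to Kdr ratio was 3.83, 2.98, 2.47 and 3.85 in primary AS1, primary AS2, metastatic AS1 and metastatic AS2, and 9.00, 5.50, 8.04 and 6.75 in the CR tumors. The Tek to Kdr ratio was 0.66, 1.09, 0.79 and 0.70 in primary AS1, AS2, CR1 and CR2 and 0.58, 0.49, 0.18 and 0.37 in the metastases. In each case the groups did not overlap, and the exact permutation p was 0.0286. Over the 14 tests made of 7 ratios, the Benjamini-Hochberg adjusted p was 0.200 for both. The genes of each of these ratios had point estimates on opposite sides of 0 in that comparison. The adjustment does not cover this choice, and no share over ratios of other genes is given.

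**Figure D3:**
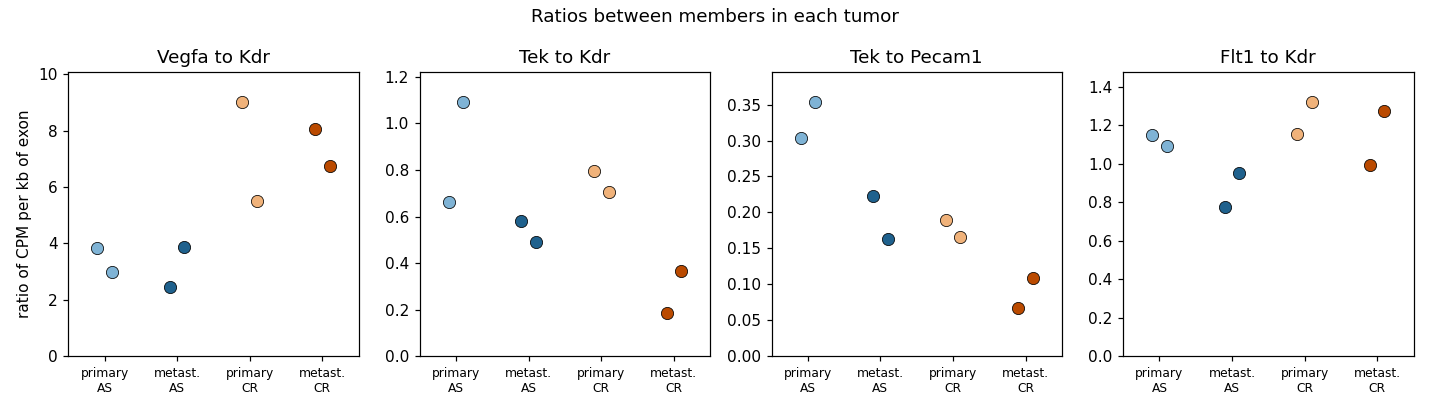
Ratios of CPM per kb of exon in each tumor for 4 of the 7 ratios, with 1 point per tumor, linear axes from 0 and tumors grouped by type and phenotype. The CR tumors are at 5.50 to 9.00 for Vegfa to Kdr against 2.47 to 3.85 in AS tumors, and the metastases are lowest for Tek to Kdr.

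The phenotype and tumor type effects were then tested for a difference between each other's levels. The interaction was called for 0 of 18889 genes (0%) by edgeR and for 2 by DESeq2, with 517 genes (2.74%) and 0 members at an unadjusted p below 0.05 by edgeR. The smallest member p was 0.308, for Flt4. Within AS tumors 0 of 10 members were called between tumor types (0% of genes), and likewise within CR tumors (0%). Within AS tumors 9 of 10 members (48.5% of all genes) and 17 of 22 other endothelial markers were above 0 in metastases, with medians of 0.30 and 0.38. Within CR tumors 8 of 10 members (47.7% of all genes) but 7 of 22 of these markers were above 0, with medians of 0.44 and -0.22. The interaction was below 0 for 18 of the 22 markers (median -0.64) and for 5 of 10 members (median 0.02), with none called. Over all genes tested, 46.5% were above 0 in the interaction, with a median of -0.05. Between phenotypes 0 members were called within primary tumors (0.296% of genes) and within metastases (0.36%). Tek had a log2 fold change of -0.71 (SE 0.46) for CR against AS in primary tumors and of -1.32 (SE 0.48) in metastases, and Vegfa had 0.64 (SE 0.38) and 0.76 (SE 0.38). For metastatic against primary tumors, Kdr had 0.52 (SE 0.26) in AS and 0.57 (SE 0.26) in CR tumors. Pecam1 had 0.61 (SE 0.33) and 0.11 (SE 0.33), a difference with an interaction p of 0.324 (edgeR).

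Genes of the same pathways were described from 7 lists. Between metastatic and primary tumors none of them was called. In the angiopoietin and Tie list, 5 of 7 genes were above 0, and Angpt2, the ligand that destabilizes vessels through Tek, had the smallest p. Angpt2 was at 2.66, 5.40, 6.72 and 4.16 CPM in primary AS1, AS2, CR1 and CR2 and at 7.28, 11.7, 8.63 and 19.6 CPM in the metastases, so that all metastases were above all primary tumors. Its log2 fold change was 1.31 (SE 0.38, edgeR unadjusted p = 0.00708, adjusted p = 0.997). Of all genes tested, 1.7% had groups that did not overlap, and 0.854% were higher in metastases in this way. Angpt2 was named for the smallest p of its list, so its separation is not independent of that choice. Svep1, a matrix protein linked to Tie signaling, had -1.97 (SE 0.76).

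In the list of Notch and tip cell genes, 7 of 11 tested were above 0. Esm1, a tip cell gene induced by VEGF, averaged 1.13 ± 0.74 CPM in primary tumors and 4.18 ± 2.39 CPM in metastases, a log2 fold change of 1.86 (SE 0.57, edgeR unadjusted p = 0.00939). Apln, the tip cell ligand apelin, had 1.81 (SE 0.81). Of 14 hypoxia genes 12 were above 0, led by the oxygen sensor Egln3 with 1.57 (SE 0.62) and the vessel peptide adrenomedullin, Adm, with 1.03 (SE 0.42). Pgf, the placental growth factor that binds Flt1, had 1.099 (SE 0.51) and the coreceptor Nrp2 had 0.35 (SE 0.34).

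The endoglin partners gave 7 of 13 above 0, with Smad1 at 0.62 (SE 0.36) and Bmp6 at 0.89 (SE 0.53). VEGF receptor signaling gave 7 of 18 above 0, with Ptpn6 at 0.27 (SE 0.16) and Sphk1 at -0.57 (SE 0.36). The angiogenesis inhibitors gave 8 of 11 above 0, with Col18a1, the source of endostatin, at 0.67 (SE 0.31) and Vash2 at 0.90 (SE 0.53). All adjusted p-values of these genes were 0.997 (edgeR).

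Between CR and AS tumors 9 of the 78 genes tested in the 7 lists were called by edgeR, or 11.5%, against the 11.4% of all genes. Of 14 hypoxia genes, 3 rose and none fell, against 5.66% of all genes higher and 5.72% lower. Pdk1, the kinase that restrains pyruvate entry into mitochondria, was at 13.4, 13.4, 12.8 and 23.9 CPM in primary AS1, primary AS2, metastatic AS1 and metastatic AS2 and at 64.3, 40.8, 75.2 and 49.4 CPM in the CR tumors. The log2 fold change was 1.86 (SE 0.25, edgeR adjusted p = 0.00594), and it was called in 8 of 8 fits with a tumor left out. Hif1a, the oxygen-regulated subunit, averaged 117.9 ± 18.3 CPM in AS and 215.6 ± 7.21 CPM in CR tumors (log2 fold change 0.87, SE 0.15, edgeR adjusted p = 0.0134). It was called in 6 of 8 such fits, but not without primary AS2 or metastatic AS1, where the edgeR adjusted p reached 0.0602. Egln1, which marks Hif1a for degradation, rose by 0.60 on the log2 scale (SE 0.16, edgeR adjusted p = 0.0428), and was called in 1 of 8 such fits, the one without primary CR1, with an edgeR adjusted p of up to 0.157 in the others.

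Among ligands and coreceptors, Pgf fell, from 4.49 ± 2.44 CPM in AS to 1.77 ± 0.73 CPM in CR tumors (log2 fold change -1.33, SE 0.28, edgeR adjusted p = 0.0224), while Nrp1, Nrp2 and Figf (Vegfd) were not called. In the angiopoietin list Angptl4, a hypoxia-induced secreted protein, rose from 6.52 ± 1.14 to 12.9 ± 1.68 CPM (log2 fold change 0.997, SE 0.18, edgeR adjusted p = 0.0150). Each was called in 3 of 8 fits with a tumor left out, Pgf without primary AS1, metastatic AS1 or primary CR1 and Angptl4 without either CR2 tumor or primary CR1. In the other fits the edgeR adjusted p reached 0.0850 for Pgf and 0.0567 for Angptl4.

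In the Notch and tip cell list Efnb2, the arterial ephrin, rose by 0.995 on the log2 scale (SE 0.23, edgeR adjusted p = 0.0303). In the signaling list Prkca, a kinase downstream of Kdr, fell from 57.9 ± 16.7 to 25.2 ± 6.75 CPM (log2 fold change -1.19, SE 0.24, edgeR adjusted p = 0.0193). Of the inhibitors, 2 rose, the semaphorin Sema3a by 2.10 on the log2 scale (SE 0.44, edgeR adjusted p = 0.0219) and Vash2 by 1.29 (SE 0.31, edgeR adjusted p = 0.0337). Vash2 is grouped with the inhibitors by family and is known as a promoter of vessel growth. With a tumor left out, Prkca was called in 5 of 8 fits, but not without primary AS1, metastatic AS1 or metastatic CR2 (edgeR adjusted p up to 0.0746). Sema3a was called in 3 (without primary AS1, primary CR1 or primary CR2), Efnb2 in 2 (without metastatic AS2 or primary CR1) and Vash2 in 1 of 8 fits (without primary CR1). In the other fits the edgeR adjusted p reached 0.0744, 0.0887 and 0.122 for these genes. Other processing also ended some of these calls in edgeR. Without the tumor type covariate, the adjusted p was 0.0737 for Pgf, 0.0697 for Efnb2 and 0.0734 for Vash2, and without the low-count filter it was 0.162 for Egln1 and 0.0788 for Vash2. Sema3a and Vash2 were too low to be tested at a minimum of 1 CPM in 4 tumors. DESeq2 fits with a tumor left out were chosen after the data were seen. In them the DESeq2 adjusted p reached at most 0.0124 for Pgf, 0.0162 for Efnb2, 0.00196 for Sema3a and 0.0432 for Vash2. For Egln1 it reached 0.0821, above the threshold.

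None of 13 endoglin partners was called by edgeR, the smallest p being those of Acvrl1, the receptor that pairs with Eng, with -0.87 (SE 0.32, edgeR adjusted p = 0.111), and Smad6 with -0.59 (SE 0.25, edgeR adjusted p = 0.162). Acvrl1 was called without the low-count filter (edgeR adjusted p = 0.0426) and without primary CR1 (edgeR adjusted p = 0.0195). The interaction called no gene of these lists, the smallest p being that of Thbs2, a thrombospondin, at 0.00611 (edgeR adjusted p = 0.964).

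**Figure D4:**
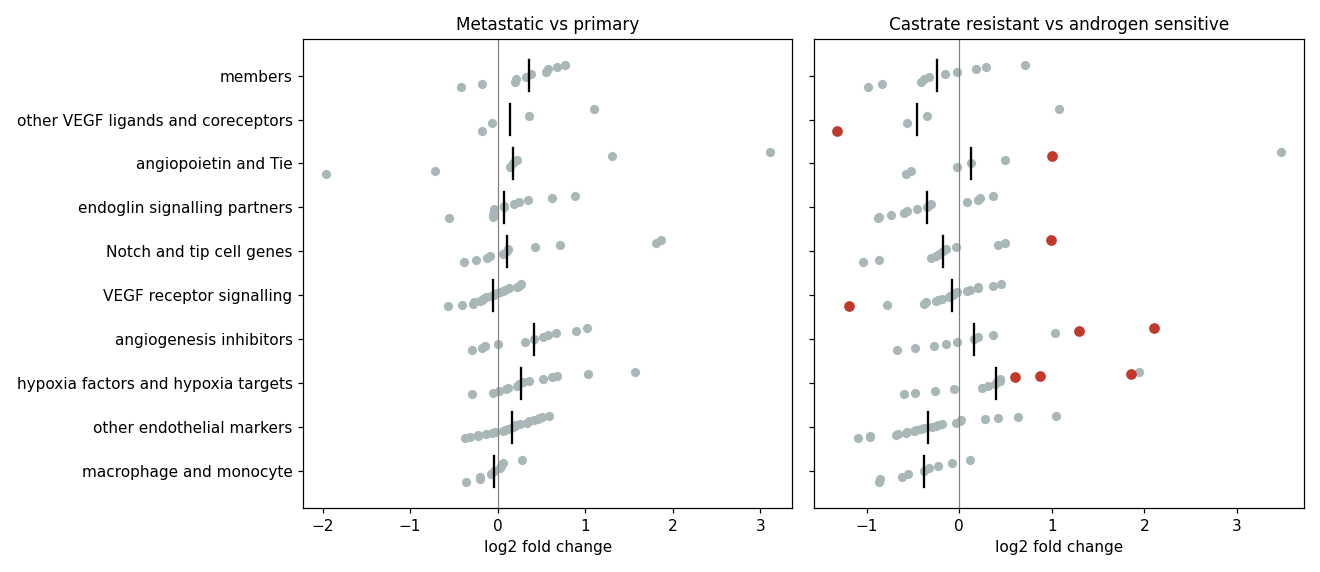
Log2 fold changes of the 10 members and of the genes tested in 9 lists, for metastatic against primary (left) and CR against AS tumors (right), with 1 point per gene, a black bar at the median of each list and red points for genes with an edgeR adjusted p below 0.05. No point is red on the left, and on the right 9 points in the 7 pathway lists are red, none of them a member.

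Vegfa varied with most of the hypoxia genes across the 8 tumors, with Pearson's r on log2(CPM + 1) above 0.5 for 10 of 14 and a median r of 0.74. The other 4 were Arnt, the partner of Hif1a (r = 0.31), the glucose transporter Slc2a1 (0.07), Vhl, which directs Hif1a to degradation (0.07), and Epas1, another oxygen-regulated subunit, known for endothelial expression (-0.46). Among the 10, r was 0.92 with Bnip3 (Spearman's rho 0.88), 0.90 with Pgk1 (rho 0.91), 0.85 with Pdk1 (rho 0.86) and 0.70 with Hif1a (rho 0.60). Without the 2 tumors farthest from the median of Vegfa, r was 0.94, 0.99, 0.71 and 0.58 in the same order. Bnip3 and Pgk1 were singled out after their values were seen, and metastatic AS2, the AS tumor with high Vegfa, was also the highest AS tumor for both. These are descriptions with no p, since matched tumors may share an animal and the tumors differ in phenotype, with too few in each phenotype for a value of its own. Between phenotypes 28.2% of all genes had an unadjusted p below 0.05 (edgeR). The share of all genes with r above 0.5 with Vegfa is not given here, so 10 of 14 has no background.

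**Figure D5:**
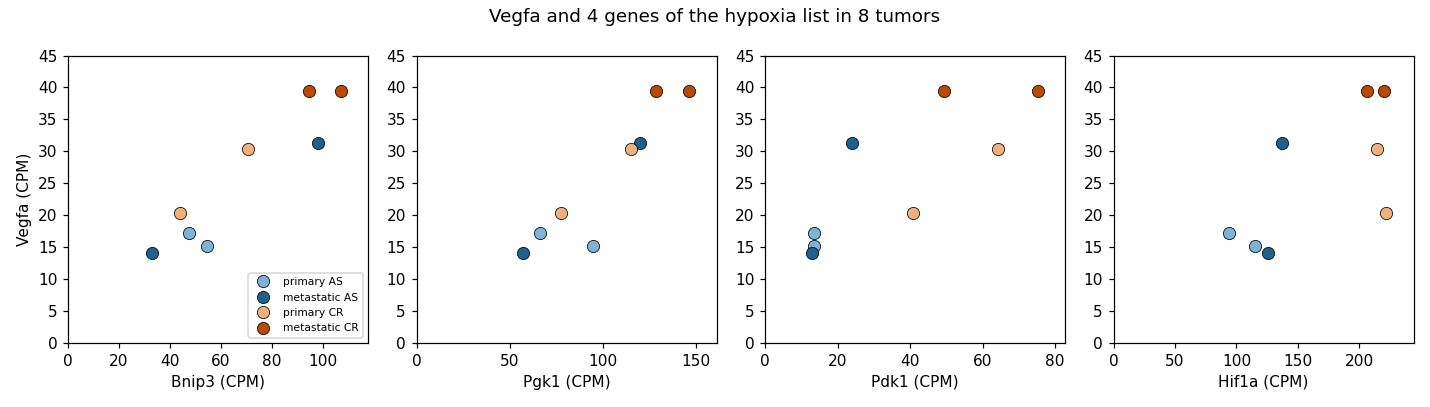
Vegfa against Bnip3, Pgk1, Pdk1 and Hif1a in CPM on linear axes from 0, with 1 point per tumor coloured by type and phenotype. Metastatic AS2 lies with the CR tumors for Bnip3 and Pgk1 and among the AS tumors on the Pdk1 and Hif1a axes.

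The endothelial members followed the other endothelial markers to different extents. Across the 8 tumors, r with the mean log2(CPM + 1) of the 22 markers was 0.84 for Pecam1, 0.67 for Tek, 0.65 for Kdr, 0.64 for Flt1, 0.64 for Eng and 0.35 for Cdh5, and 0.07 for Flt4. Of the ligands, Vegfa had 0.04, Vegfb -0.07 and Vegfc 0.58, the last from 0 to 27 reads per tumor. Without metastatic AS2 and metastatic CR1, the tumors farthest from the median, r stayed at 0.77 for Pecam1 and was 0.48 for Tek, 0.33 for Kdr, 0.33 for Flt1 and 0.08 for Eng. It was 0.25 for Cdh5, -0.19 for Flt4, 0.13 for Vegfa, -0.43 for Vegfb and 0.215 for Vegfc, so the values of Kdr, Flt1, Eng and Vegfc rested largely on those tumors. Among 12447 other genes, those most like the mean of Kdr, Flt1, Pecam1, Cdh5, Tek and Eng were Cxcr4 (r = 0.95), Crip2 (0.94), Synpo (0.94), Plk2 (0.94), Kit (0.93) and Ppp1r18 (0.93). Those most like Vegfa were Tdg (0.96), Fyn (0.95), Osbpl3 (0.93) and Txnrd3 (0.92). The values are over 8 tumors that share their libraries and depth with both genes, and they are the highest of many.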

How the data were processed

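The authors prepared stranded libraries from ribosomal RNA-depleted total RNA of 8 tumors and sequenced paired reads of 101 bases. By the study's methods reads were mapped to mm10 with Bowtie, keeping single locations with up to 2 mismatches, while the submitters' processing notes name CASAVA 1.8.2, TopHat2 2.0 and GRCm38. The deposited values are raw counts per gene, and the counting tool is not given in the sources used here. The study gives 3 primary tumors without naming them, so all 4 were used.

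Counts were tested with edgeR 4.0.16 (quasi-likelihood, filterByExpr, TMM) in R 4.3.3, with Benjamini-Hochberg adjusted p under 0.05 as the threshold. Terms were tumor type, then phenotype with tumor type, then the 4 groups for interaction and within-group contrasts. The fit of tumor type held no phenotype term, so spread between phenotypes is part of its error. Standard errors are the log2 fold change over the square root of F. Single values were tested by exact two-sided permutation of log2(CPM + 1) with scipy 1.17.1. Lengths are GENCODE M21 union exons. Checks used simulated counts. Alternatives were DESeq2 1.42.0, limma 3.58.1 voom, RLE factors, other filters, scaling to protein-coding genes, other pseudocounts, and each tumor left out. Others were phenotype as a covariate between tumor types and no covariate between phenotypes.

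The members and the 18 other gene lists were chosen with earlier results of these data known. Besides all members, the text names per pathway list and comparison the genes past the threshold, up to 4, or else the 2 with the smallest p, and the 6 and 4 genes with the highest r to the endothelial mean and to Vegfa, with a mean count of at least 100. Genes outside this rule are markers or are said to be singled out later. Depth per tumor was 20905806 to 91886163 counts, and precision rests on the number of tumors. Some genes of the prostate marker list are not reported here.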

Additional observations from a re-analysis of the deposited data

Results flagged for a closer look

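Of 40 sets of 4 tumors, 1 per member and side of each comparison, 3 held a tumor set apart from the other 3 by Dixon's test, where chance flags about 1 in 20. Tek was at 6.13 CPM in primary AS2, against 2.87 to 3.29 CPM in the other primary tumors. Eng was at 3.45 CPM in primary CR1, against 5.55 to 5.60 CPM in the other primary tumors. Eng was at 7.39 CPM in metastatic AS2, against 5.37 to 5.60 CPM in the other AS tumors.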

How the results depend on the processing

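Between CR and AS tumors, 2 members were called with DESeq2 and 1 without the low-count filter, against 0 by edgeR, and 0 to 1 with DESeq2 and a tumor left out. The fits of DESeq2 with a tumor left out and the values relative to other endothelial markers were chosen after seeing the data. The genes called numbered 3563 with DESeq2 and 3098 without the filter, against 2026. They numbered 433 (without metastatic AS1) to 3994 (without primary CR1) with a tumor left out, and 2127 to 5136 with DESeq2 and a tumor left out. The interaction was called for 2 genes with DESeq2, 217 without the filter and up to 82 with a tumor left out (without primary CR2; 0 at the lowest). Members whose values did not overlap numbered 1 for metastatic against primary and 0 for CR against AS relative to the other endothelial markers, against 0 and 1; over all genes the shares were 1.23% and 12.6%, against 1.7% and 18.4%.

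Pecam1 changed sign between CR and AS tumors, to 0.0051 with DESeq2 and with RLE factors, 0.0179 with at least 1 CPM in 4 tumors and 0.0115 with protein-coding scaling. With a tumor left out, the fold changes that changed sign ranged, between tumor types, from -0.054 to 0.4753 for Vegfb and from -0.4652 to 0.2041 for Vegfc. Between phenotypes they ranged from -0.0807 to 0.4865 for Flt4, from -0.2107 to 0.182 for Pecam1 and from -0.1453 to 0.5232 for Cdh5. Relative to the other endothelial markers, the log2 difference of Flt1 between phenotypes was 0.1226, against -0.1208 on log2(CPM + 1). The causes were not tested, and no other fold change of a member reversed in the alternatives run. Among others that moved by over 1.5 times without a change of sign, between tumor types Tek ranged from -0.7135 (without metastatic AS2) to -0.0729 (without primary AS2), Eng from 0.0435 (without primary CR1) to 0.3381 (without metastatic CR1), and without metastatic AS2 Pecam1 was 0.1975 and Flt1 0.1854. Of the named genes called between CR and AS tumors, 8 lost their call in at least 1 alternative. By edgeR this was in 40 values with a tumor left out and 5 under other settings. No paired analysis was run because the primary tumor that each metastasis matches is not given. With 4 tumors a side and low counts for Vegfc and Flt4, small differences could not be resolved.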
